A study of Mus musculus with 8 samples.

Results

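The chemokines and chemokine receptors of mouse embryonic fibroblasts (MEFs) are described here from 57 of the 50578 genes in the count table. Members were picked by symbol alone, as every Ccl, Cxcl, Ccr, Cxcr or Ackr gene with a number, and Cx3cl1. No measured value enters that rule. The libraries were made from untreated wild-type MEFs (MEF) and from wild-type MEFs cultured with 10 µM carbidopa (Carbidopa), 10 µM CHIR-99021 or 10 µM LY-364747, with 2 libraries in each of the 4 groups.

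All 4 groups started from primary cells of C57BL/6J embryos at E13.5, whose head, tail, limbs and internal organs had been removed, and were grown in medium with fetal bovine serum without any sort for fibroblasts. Such a culture can hold other cells of the embryo, and in bulk RNA fewer cells of a type and less RNA per cell cannot be told apart. Carbidopa blocks the decarboxylase that makes dopamine from its precursor, and CHIR-99021 inhibits the kinase GSK3. The compound labelled LY-364747 is written LY-364947, a TGF-beta receptor inhibitor, in the methods of the study. The treated libraries carry the cell type hepatic-like on their labels, the treatment time of the sequenced cells is not given in the sources used here, and nothing says whether replicates were separate cultures, so that p-values measure only the spread between these libraries.

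Chemokines are small secreted proteins that steer migrating cells. They fall into CXC, CC and CX3C groups by the spacing of their first cysteines, and they act on G protein-coupled receptors of matching names. Atypical receptors of the Ackr group bind chemokines without signalling through G proteins and so remove or display them. Fibroblasts are known as a source of Cxcl12 and Ccl2, and macrophages of Ccl3, Ccl4, Ccl6 and Ccl9.

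The 8 libraries held 15039566 to 20504338 counted reads. Levels are given as CPM (read counts scaled to the same library total). Summed over 10 fibroblast genes, the markers reached 34745 to 35081 CPM in MEF libraries and 8123 to 11703 in treated ones. With each compound 8 of the 10 fell and 1 rose. Fn1 alone gave 259090 of the 472174 marker reads in MEF 1. Pdgfra had 3198 and 4086 reads in MEF and 5890 to 8228 in treated libraries. Summed over 12 hepatocyte genes, the markers reached 0.451 to 1.18 CPM in every library, and none of the 12 had enough reads to be tested, so that the defining genes of the labelled cell type were near 0. Alb, the serum albumin gene, had 2 and 0 reads in MEF and 5 to 10 in each treated library, and Hnf4a, a liver transcription factor, had 1 and 2 reads in MEF and 6 to 10 in each treated library, while Apob had 10 and 2 in MEF and 0 to 6 in treated ones. Macrophage genes were present: 17 markers summed to 1349 and 1401 CPM in MEF, 418 and 403 with carbidopa, 302 and 306 with LY-364747 and 104 and 111 with CHIR-99021. Among the 14 tested, 13 fell with carbidopa, 13 with LY-364747 and 14 with CHIR-99021, although Cd163 had 0 or 1 read and Aif1 at most 4 in any library. Neutrophil markers summed to at most 0.699 CPM and lymphocyte markers to at most 0.319. Endothelial markers summed to 51.3 to 58.2 CPM in MEF and 129 to 246 in treated libraries, most of it Flt4. Pecam1, Cdh5 and Tie1 had at most 7 reads, and Vwf went from 77 and 99 reads in MEF to between 3 and 14 in treated libraries. Of 5 tested, 1 rose and 1 fell with carbidopa and with LY-364747, and 2 rose and 2 fell with CHIR-99021. Over all tested genes 18% rose and 19.7% fell with carbidopa, 13.7% and 17.2% with LY-364747 and 18.7% and 20.1% with CHIR-99021. The part of these marker shifts in the results was not tested.

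Promoter sequences are shown for 6 members: those with enough reads to be tested whose 250 bases before the start of transcription hold a motif searched for, and Ccl6, which holds neither but had the steepest rise and lies next to Ccl9. The motifs were the core (GGG, any 2 bases, then TTTCC) of sites bound by NF-kappaB, the factor through which inflammatory signals switch on many chemokines, and the core (GAAA, any 2 bases, then GAAA) of the interferon-stimulated response element (ISRE). Both strands were searched, and no member held both motifs. Sequences are from RefSeq on GRCm38.p6, written from 5′ to 3′ on the strand of the gene in lower case, with matches in capitals. Cxcl1, Ccl20 and Ccl9 carry the NF-kappaB core and Cxcl10 and Cxcl14 the ISRE core.
Cxcl1, chr5:90890995-90891244, plus strand: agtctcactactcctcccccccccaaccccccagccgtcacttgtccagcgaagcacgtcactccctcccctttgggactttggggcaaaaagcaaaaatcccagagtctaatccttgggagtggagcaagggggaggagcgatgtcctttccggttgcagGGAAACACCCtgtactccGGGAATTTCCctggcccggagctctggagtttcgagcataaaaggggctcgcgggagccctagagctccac
Ccl20, chr1:83116516-83116765, plus strand: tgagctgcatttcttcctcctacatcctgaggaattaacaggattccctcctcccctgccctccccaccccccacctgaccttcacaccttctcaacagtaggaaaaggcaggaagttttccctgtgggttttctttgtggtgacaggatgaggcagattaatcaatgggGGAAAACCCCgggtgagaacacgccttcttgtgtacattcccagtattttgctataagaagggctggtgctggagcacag
Ccl9, chr11:83578637-83578886, minus strand: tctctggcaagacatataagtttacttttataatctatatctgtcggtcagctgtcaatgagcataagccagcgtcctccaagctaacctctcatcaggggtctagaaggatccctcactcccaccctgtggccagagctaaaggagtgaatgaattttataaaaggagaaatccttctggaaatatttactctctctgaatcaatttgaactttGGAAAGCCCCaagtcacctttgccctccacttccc
Ccl6, chr11:83593088-83593337, minus strand: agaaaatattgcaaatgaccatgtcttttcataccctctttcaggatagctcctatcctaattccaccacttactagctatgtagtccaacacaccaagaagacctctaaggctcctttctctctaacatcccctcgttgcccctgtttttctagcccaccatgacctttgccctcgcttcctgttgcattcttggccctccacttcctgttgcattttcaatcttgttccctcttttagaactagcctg
Cxcl10, chr5:92348890-92349139, minus strand: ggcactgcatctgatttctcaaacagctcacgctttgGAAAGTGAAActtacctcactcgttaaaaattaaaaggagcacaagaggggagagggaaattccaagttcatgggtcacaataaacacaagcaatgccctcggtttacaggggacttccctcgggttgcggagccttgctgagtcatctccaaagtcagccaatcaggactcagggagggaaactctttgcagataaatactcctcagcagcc
Cxcl14, chr13:56296552-56296801, minus strand: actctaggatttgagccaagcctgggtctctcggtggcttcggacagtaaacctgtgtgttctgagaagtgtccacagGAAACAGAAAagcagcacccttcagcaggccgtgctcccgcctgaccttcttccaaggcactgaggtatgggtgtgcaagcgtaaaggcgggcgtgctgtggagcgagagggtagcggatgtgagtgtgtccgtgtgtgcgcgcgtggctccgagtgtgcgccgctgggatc

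RefSeq promoters were found for 42 of the 57 members and for 20 of the 26 with enough reads to be tested. The NF-kappaB core lay in 6 of the 42 (14.3%; Ccl20, Cxcl3, Cxcl1, Cxcl2, Ccr3 and Ccl9), against 1.40% of 27025 promoters of the same length. The ISRE core lay in 3 of the 42 (7.14%; Ccl19, Cxcl10 and Cxcl14), against 3.04%. A match is a description of letters and not of binding.

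Of the 57 members, 46 had at least 1 read and 26 had enough to be tested, which in part selects members that are high in some group. Against the MEF libraries, which all 3 comparisons share, members mostly moved down. With carbidopa 3 of the 26 rose and 10 fell, where among all 15154 tested genes 18% rose and 19.7% fell. With LY-364747 1 rose and 13 fell, beside 13.7% and 17.2% of all tested genes. With CHIR-99021 none rose and 17 fell, beside 18.7% and 20.1%. In either direction, 37.7% of all tested genes passed with carbidopa, 31% with LY-364747 and 38.8% with CHIR-99021. Here and throughout, rose and fell stand for an adjusted p under 0.05 in edgeR's quasi-likelihood test, corrected over all tested genes. For the absence of rises with CHIR-99021, 1 member, Ccl6, was higher at an unadjusted p under 0.05, and DESeq2 called none. The median log2 fold change of the 26 members was -0.61 with carbidopa, -0.68 with LY-364747 and -1.98 with CHIR-99021, against 0.04, 0.03 and 0.04 over all tested genes.

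**Figure D1:**
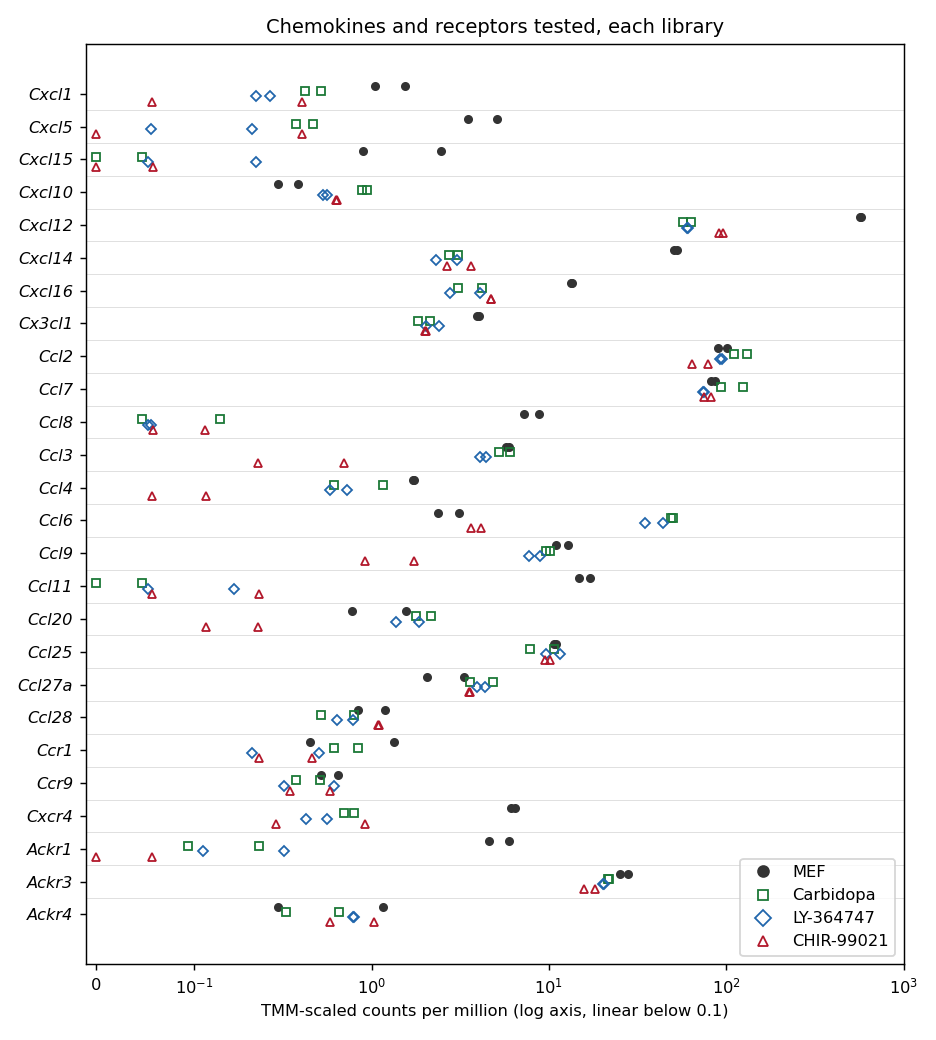
Level of the 26 tested chemokine and receptor genes in each of the 8 libraries, in CPM on a log axis that is linear below 0.1; each point is 1 library. Cxcl12 goes from 565 and 574 CPM in MEF to between 57.4 and 95.4 in treated libraries, and Ccl8 and Ccl11 stood at 0.232 CPM or less in every treated library.

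The summed ligand reads went down and changed in make-up. Such a sum weighs long transcripts more: Cxcl12 has 8176 exon bases, Ccl2 has 1138 and Ccl7 has 801. Its fall therefore need not match a fall in the number of ligand transcripts. All ligands together gave 873 and 903 CPM in MEF, 407 and 362 with carbidopa, 314 and 303 with LY-364747 and 262 and 289 with CHIR-99021. Every treated library was below both MEF libraries. As a share of reads, which favours long transcripts, Cxcl12 supplied 64.7% and 63.6% of that sum in MEF, but 14.1% to 34.9% in the treated libraries, whereas Ccl2 and Ccl7 together went from 19.6% and 20.7% to between 53.1% and 63.1%.

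Cxcl12, the ligand that holds blood stem cells and immune cells in their niches, accounted for most of the drop in summed reads. It lies at chr6:117168535-117181367. It stood at 565 and 574 CPM in MEF, 57.4 and 63.0 with carbidopa, 60.05 and 61.3 with LY-364747 and 91.2 and 95.4 with CHIR-99021. The treated groups were far below MEF without overlap, and the CHIR-99021 libraries lay above the other treated ones. The log2 fold change was -3.24 ± 0.10 (SE, n = 2 against 2) with carbidopa (edgeR adjusted p = 7.73e-09), -3.23 ± 0.10 with LY-364747 (adjusted p = 8.74e-09) and -2.61 ± 0.10 with CHIR-99021 (adjusted p = 3.24e-08).

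Cxcl14 (chr13:56288643-56296551), a CXC ligand of skin and other epithelia, fell more steeply still. It had 51.0 and 53.0 CPM in MEF, 3.06 and 2.75 with carbidopa, 2.30 and 3.03 with LY-364747 and 3.62 and 2.67 with CHIR-99021. The 3 treated groups overlapped each other and were all below MEF, with log2 fold changes of -4.16 ± 0.18, -4.28 ± 0.19 and -4.04 ± 0.18 in that order (adjusted p = 7.38e-08, 7.64e-08 and 9.65e-08). Its promoter holds the ISRE core printed above.

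The membrane-bound ligands Cxcl16 and Cx3cl1, which can tether cells and are shed by proteases, fell by smaller amounts. Cxcl16 (chr11:70453983-70459984) had 13.5 and 13.3 CPM in MEF and 2.77 to 4.72 in treated libraries. None of the treated libraries reached the MEF range, and the log2 fold change was -1.88 ± 0.22 with carbidopa, -1.97 ± 0.22 with LY-364747 and -1.51 ± 0.22 with CHIR-99021 (adjusted p = 8.99e-05, 7.94e-05 and 0.00038). Exons of Cxcl16 and of Zmynd15 on the other strand share 18.3% of the exon bases of Cxcl16, but Zmynd15 stayed under 1 CPM in every library. Cx3cl1 (chr8:94772009-94782427), known as fractalkine, had 4.01 and 3.93 CPM in MEF, 1.83 and 2.14 with carbidopa, 2.02 and 2.39 with LY-364747 and 2.01 and 2.03 with CHIR-99021. It was lower in every treated library, by a log2 fold change of -0.99 ± 0.24, -0.84 ± 0.24 and -0.97 ± 0.25 (adjusted p = 0.00916, 0.0231 and 0.0105). The 3 calls of Cx3cl1 were lost with DESeq2 and without either MEF library, where the values stayed between -0.83 and -1.02, and also without LY-364747 1 (-0.73), LY-364747 2 (-0.98) or CHIR-99021 1 (-0.96) in the comparisons that hold them.

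The ELR-bearing CXC ligands, which draw neutrophils through Cxcr2, were low in MEF, and of the 3 of 5 that were tested 2 fell with carbidopa and 3 with each of the other compounds. Cxcl5 (chr5:90759360-90761624) had 3.49 and 5.09 CPM in MEF, 0.376 and 0.466 with carbidopa, 0.0561 and 0.213 with LY-364747 and 0 and 0.406 with CHIR-99021. It fell with every compound, by log2 fold changes of -3.33 ± 0.59, -4.91 ± 0.73 and -4.37 ± 0.69 (adjusted p = 0.00154, 0.000497 and 0.000682). With only 0 and 7 reads under CHIR-99021, that value was -3.38 without CHIR-99021 1 and -9.27 without CHIR-99021 2, and for LY-364747 it was -4.29 without LY-364747 1 and -6.10 without LY-364747 2.

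Cxcl1 (chr5:90891241-90893115), a neutrophil attractant and a classic NF-kappaB target, had 14 and 24 reads in MEF, 11 and 9 with carbidopa, 4 and 5 with LY-364747 and 1 and 7 with CHIR-99021. It fell with LY-364747 (log2 fold change -2.37 ± 0.63, adjusted p = 0.0157) and with CHIR-99021 (-2.46 ± 0.64, adjusted p = 0.0123). Its change of -1.46 ± 0.55 with carbidopa did not pass (adjusted p = 0.0609), although it did with the compared groups alone. All treated libraries were below both MEF libraries. Both calls were lost without MEF 2 (-2.06 and -2.14), the LY-364747 one also without either of its own libraries (-2.26 and -2.50) and the CHIR-99021 one also without CHIR-99021 1 (-1.66); without CHIR-99021 2 that value was -4.34, and DESeq2 lost the LY-364747 call.

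Cxcl15 (chr5:90794534-90803067), a ligand best known from the lung, had 12 and 38 reads in MEF, 1 and 0 with carbidopa, 4 and 1 with LY-364747 and 0 and 1 with CHIR-99021. It fell with each compound (adjusted p = 0.00138, 0.00637 and 0.00198). As pooled reads, MEF held 73.7 times the level with carbidopa (exact 95% interval 12.6 to 2969), 12.6 times that with LY-364747 (5.07 to 40.6) and 59.8 times that with CHIR-99021 (10.2 to 2407), and all such intervals cover counting error only. The LY-364747 call was lost without MEF 2 (log2 fold change -2.65) and without LY-364747 2 (-2.88), and the value was -4.82 without LY-364747 1. The other fitted values were also set by single libraries, from -4.90 to -7.88 with carbidopa and from -4.66 to -7.93 with CHIR-99021 as MEF 2 or either treated library was left out.

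Cxcl10 (chr5:92346638-92348889), the interferon-induced attractant of T cells through Cxcr3, moved the other way at a low level. It had 4 and 6 reads in MEF, 20 and 19 with carbidopa, 10 and 10 with LY-364747 and 11 and 11 with CHIR-99021. All treated libraries were above MEF in CPM, and only carbidopa passed, with a log2 fold change of 1.39 ± 0.46 (adjusted p = 0.0378). The values of 0.65 ± 0.50 with LY-364747 (adjusted p = 0.37) and 0.87 ± 0.50 with CHIR-99021 (adjusted p = 0.192) did not, and the difference between compounds did not pass either. The carbidopa call was lost without any 1 library, where the value ran from 1.22 to 1.59. The same call was lost with no filter, with the compared groups alone, with the replicate block and with DESeq2. Of the exon bases of Cxcl10, 5.91% are shared with Art3 on the other strand, which had at most 4 reads in any library.

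**Figure D2:**
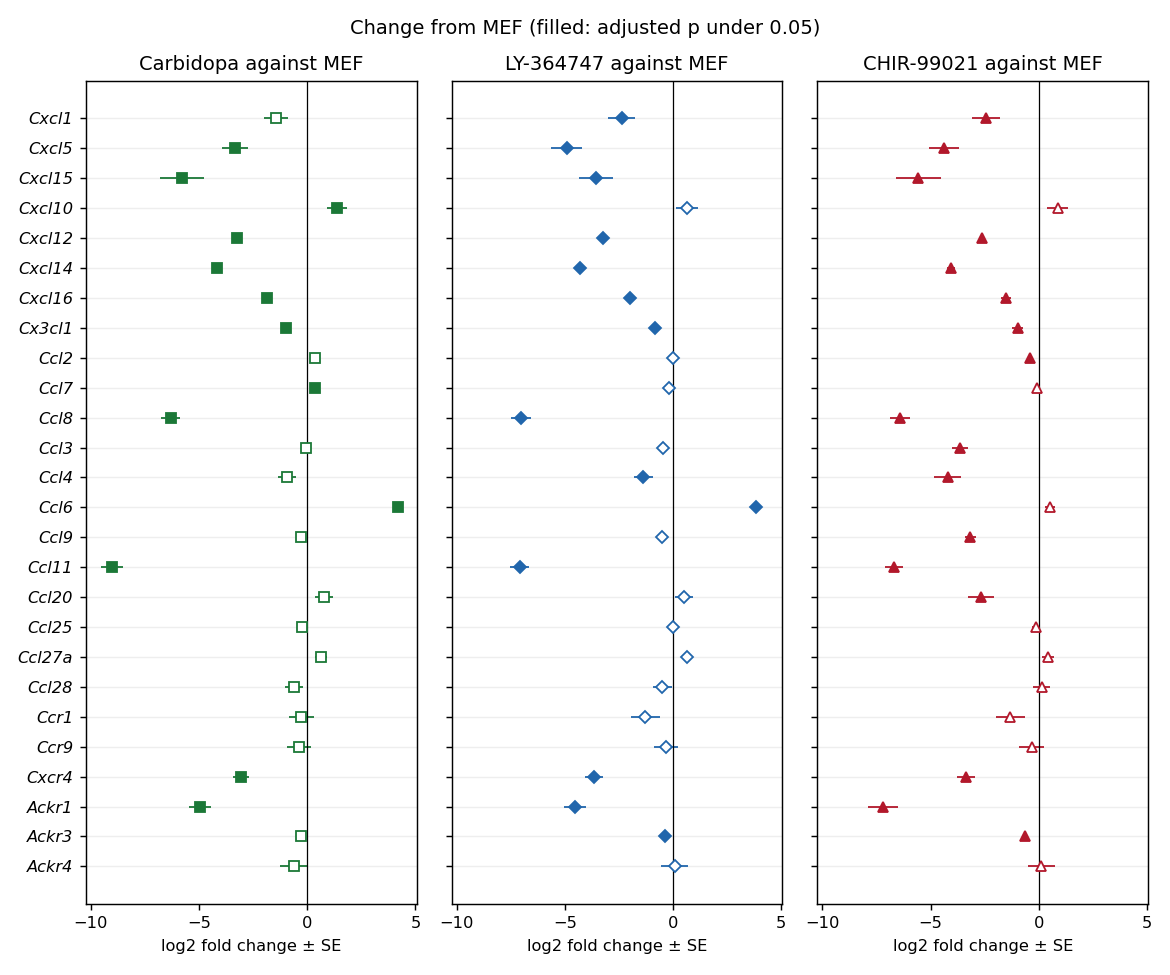
Log2 fold change from MEF of the 26 tested members with each compound, 1 panel per compound; bars are SE (n = 2 against 2) and filled points passed an adjusted p of 0.05. Values of genes with 0 to 4 reads in the treated libraries, such as Ccl11 with carbidopa at -9.03, depend on the fit and are no bound; Ccl6 is the member far above 0 with carbidopa (4.17) and LY-364747 (3.85).

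Ccl2, Ccl7, Ccl11, Ccl12 and Ccl8 sit together on chromosome 11, and the 4 tested among them had unlike calls. Measured from the start of Ccl2 (chr11:82035571-82037453), Ccl7 (chr11:82045712-82047525) begins at 10.1 kb, Ccl11 (chr11:82057823-82062955) at 22.3 kb, Ccl12 at 66.3 kb and Ccl8 (chr11:82115185-82116799) at 79.6 kb. Ccl2 and Ccl7, which attract monocytes, kept most of their level, whereas Ccl11 and Ccl8 went to a few reads.

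Ccl11, or eotaxin-1, calls eosinophils through Ccr3. It had 198 and 264 reads in MEF, 0 and 1 with carbidopa, 3 and 1 with LY-364747 and 1 and 4 with CHIR-99021. It fell with each compound (adjusted p = 4.7e-07, 8.4e-07 and 8.86e-07), and pooled reads put MEF 681 times above carbidopa (exact 95% interval 122 to 26963), 146 times above LY-364747 (56.7 to 538) and 110 times above CHIR-99021 (47.0 to 342). These intervals overlap each other, and no difference between compounds passed. The fitted log2 fold change ran from -8.21 to -11.11 with carbidopa, from -6.50 to -8.04 with LY-364747 and from -6.05 to -7.94 with CHIR-99021 as either treated library was left out.

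Ccl8, a monocyte and T cell attractant, had 118 and 113 reads in MEF, 1 and 3 with carbidopa, 1 and 1 with LY-364747 and 2 and 1 with CHIR-99021. MEF stood 85.1 times above carbidopa (32.8 to 315), 146 times above LY-364747 (40.0 to 1213) and 92.0 times above CHIR-99021 (31.1 to 450) in pooled reads. All 3 falls passed, with adjusted p of 1.67e-06, 1.72e-06 and 2.11e-06. The fitted carbidopa value moved from -6.32 to -7.21 without Carbidopa 2.

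Ccl2 stood at 89.5 and 100 CPM in MEF, 132 and 111 with carbidopa, 94.5 and 92.8 with LY-364747 and 63.8 and 78.9 with CHIR-99021. The carbidopa libraries were above MEF, those with LY-364747 lay inside the MEF range and those with CHIR-99021 below it. Only the last difference passed, at a log2 fold change of -0.41 ± 0.13 (adjusted p = 0.0305), and it was lost without MEF 1 (-0.49), MEF 2 (-0.33), CHIR-99021 1 (-0.26) or either LY-364747 library (-0.42 and -0.41). The others were 0.35 ± 0.13 with carbidopa (adjusted p = 0.0545) and -0.02 ± 0.13 with LY-364747 (adjusted p = 0.928). The carbidopa value passed with no filter (0.37), and it was 0.47 without Carbidopa 2.

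Ccl7 stood at 81.9 and 86.3 CPM in MEF, 125 and 93.5 with carbidopa, 74.7 and 73.6 with LY-364747 and 75.2 and 82.2 with CHIR-99021. It rose with carbidopa by 0.38 ± 0.13 on the log2 scale (adjusted p = 0.0484), mostly through Carbidopa 1, without which the value was 0.15. The call was lost without any library other than Carbidopa 2, with values of 0.34 to 0.41 apart from Carbidopa 1. The same call was lost with RLE size factors, with the compared groups alone, with the replicate block and with DESeq2. Changes of -0.18 ± 0.13 with LY-364747 and -0.10 ± 0.13 with CHIR-99021 did not pass (adjusted p = 0.345 and 0.605).

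**Figure D3:**
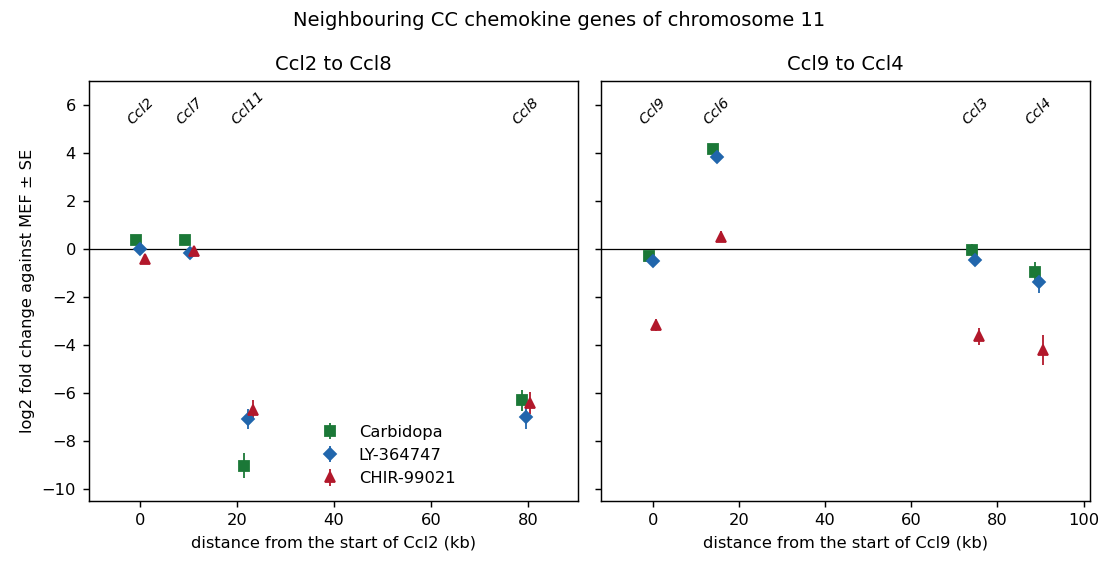
Log2 fold change from MEF of tested CC ligands of 2 clusters on chromosome 11 against distance in kb from the start of Ccl2 (left) and of Ccl9 (right), 1 colour and shape per compound with points of a gene set slightly apart; bars are SE (n = 2 against 2). Ccl11 and Ccl8 lie far below Ccl2 and Ccl7 in the left cluster, and Ccl6 far above Ccl9, Ccl3 and Ccl4 with carbidopa and LY-364747 in the right one.

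The second cluster, about 1490 to 1627 kb further along, holds ligands that macrophages are known to make. In it Ccl6 (chr11:83587882-83593087) rose with carbidopa and LY-364747, while Ccl9 (chr11:83572919-83578636), Ccl3 (chr11:83647844-83649355) and Ccl4 (chr11:83662584-83664683) fell with CHIR-99021.

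Ccl6, a mouse CC ligand that acts on Ccr1, showed the steepest rise among the tested members. It had 3.12 and 2.39 CPM in MEF, 50.0 and 48.9 with carbidopa, 43.8 and 35.01 with LY-364747 and 4.14 and 3.65 with CHIR-99021. The carbidopa and LY-364747 libraries were all far above the MEF and CHIR-99021 ones. The log2 fold change was 4.17 ± 0.18 with carbidopa (adjusted p = 7.22e-08), 3.85 ± 0.18 with LY-364747 (adjusted p = 1.28e-07) and 0.51 ± 0.22 with CHIR-99021, which did not pass (adjusted p = 0.088). The first 2 of these calls held in every alternative run.

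Ccl3, which brings in macrophages and T cells, had 5.72 and 6.00 CPM in MEF, 5.27 and 6.01 with carbidopa, 4.09 and 4.42 with LY-364747 and 0.230 and 0.696 with CHIR-99021. Only CHIR-99021 stood well apart, and it passed at -3.64 ± 0.35 (adjusted p = 2.16e-05), with -3.06 without CHIR-99021 1 and -4.62 without CHIR-99021 2. The carbidopa value of -0.06 ± 0.25 (adjusted p = 0.877) and the LY-364747 value of -0.46 ± 0.25 (adjusted p = 0.203) did not pass.

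Ccl4, a close relative of Ccl3, had 23 and 27 reads in MEF, 13 and 25 with carbidopa, 13 and 11 with LY-364747 and 1 and 2 with CHIR-99021. It fell with CHIR-99021 (adjusted p = 0.000434), where MEF held 19.9 times the pooled level (exact 95% interval 6.44 to 99.9), and with LY-364747 at a log2 fold change of -1.39 ± 0.44 (adjusted p = 0.0356). The carbidopa value of -0.95 ± 0.41 did not pass (adjusted p = 0.0947), and it would with Carbidopa 2 left out (-1.48). The LY-364747 call was lost without any 1 MEF, LY-364747 or CHIR-99021 library (-1.24 to -1.55), with the replicate block and with DESeq2.

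Ccl9, a Ccr1 ligand whose promoter holds the NF-kappaB core printed above, had 148 and 199 reads in MEF, 204 and 217 with carbidopa, 137 and 168 with LY-364747 and 16 and 30 with CHIR-99021. In CPM every treated library was below both MEF libraries. It fell with CHIR-99021 by 3.16 ± 0.26 on the log2 scale (adjusted p = 6.74e-06). The lower levels with carbidopa (-0.28 ± 0.20, adjusted p = 0.307) and LY-364747 (-0.52 ± 0.21, adjusted p = 0.0833) did not pass, and the latter did with either Carbidopa library left out, at -0.52 both times.

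These ligands were also set against the macrophage marker sum of each library. In that sum Lyz2 alone gave 9925 of 18153 reads in MEF 1, and single markers moved unequally. With CHIR-99021 Mrc1 went from 538 and 757 reads in MEF to 10 and 13, but Cd14 from 79 and 91 to 69 and 60. The ratios therefore depend on which markers the sum holds. The sum itself went from 1349 and 1401 CPM in MEF to between 104 and 418 in treated libraries. A gene whose CPM stayed the same thus has a higher ratio in treated libraries by construction. Ccl3 with carbidopa is near such a case, at 5.27 and 6.01 CPM beside 5.72 and 6.00 in MEF. Per 1000 marker reads, Ccl6 gave 2.31 and 1.70 reads in MEF, 120 and 121 with carbidopa, 145 and 115 with LY-364747 and 39.8 and 33.0 with CHIR-99021, so that it was higher than in MEF in every treated library. Ccl3 gave 4.24 and 4.28, 12.6 and 14.9, 13.5 and 14.5, and 2.21 and 6.29 in the same order. Ccl3 thus lay above MEF with carbidopa and LY-364747 and on both sides of it with CHIR-99021. Ccl9 gave 8.15 and 9.16, 23.0 and 25.1, 25.4 and 29.3, and 8.84 and 15.7. Ccl4 gave 1.27 and 1.24, 1.46 and 2.89, 2.41 and 1.92, and 0.553 and 1.05. Both were above MEF with carbidopa and LY-364747, and with CHIR-99021 both Ccl4 values were below MEF while 1 of those of Ccl9 lay within the MEF range. No test was made on these ratios, and no value here tells which cells the reads came from.

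**Figure D4:**
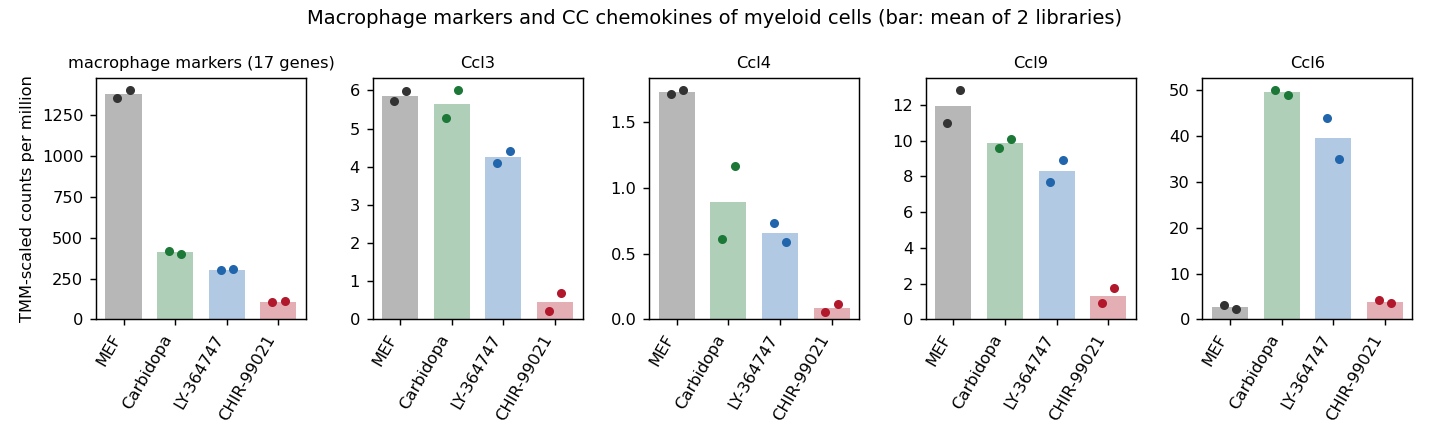
Summed level of 17 macrophage markers and levels of Ccl3, Ccl4, Ccl9 and Ccl6 in each group, in CPM on linear axes of different height that start at 0; bars are the mean of the 2 libraries drawn as points. The marker sum runs from 1349 and 1401 in MEF to 104 and 111 with CHIR-99021, while Ccl6 runs from 3.12 and 2.39 in MEF to 50.0 and 48.9 with carbidopa.

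Ccl20 (chr1:83116766-83119167), the ligand of Ccr6 and the third tested member with the NF-kappaB core, had 21 and 12 reads in MEF, 46 and 38 with carbidopa, 33 and 26 with LY-364747 and 4 and 2 with CHIR-99021. It fell with CHIR-99021 at a log2 fold change of -2.68 ± 0.59 (adjusted p = 0.00512). The values of 0.77 ± 0.40 with carbidopa (adjusted p = 0.156) and 0.49 ± 0.41 with LY-364747 (adjusted p = 0.417) did not pass.

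Tested ligands with no call in any comparison were Ccl25, Ccl27a and Ccl28, which are known from gut, skin and mucosa. Ccl25 ran from 7.86 to 11.6 CPM over the 8 libraries, Ccl27a from 2.06 to 4.84 and Ccl28 from 0.517 to 1.19. Of the exon bases of Ccl25, 2.74% are shared with Elavl1 on the other strand, which had 81.1 to 96.9 CPM. The Ccl25 count is thus uncertain where strand was not used. Of the 75-base words of Ccl27a, 20.2% also occur in Gm20878, 16.8% in Gm13306 and 6.37% in Ccl27b, so that its count is uncertain.

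Among receptors, Cxcr4 and Ackr3, which both bind Cxcl12, were lower in every treated library than in MEF. Cxcr4 (chr1:128588199-128592293), its signalling receptor, had 6.46 and 6.12 CPM in MEF, 0.800 and 0.699 with carbidopa, 0.561 and 0.426 with LY-364747 and 0.920 and 0.290 with CHIR-99021. It fell with each compound without overlap with MEF, by log2 fold changes of -3.06 ± 0.38, -3.66 ± 0.41 and -3.36 ± 0.40 (adjusted p = 0.000127, 6.83e-05 and 9.76e-05). The CHIR-99021 value was -4.40 without CHIR-99021 1 and -2.76 without CHIR-99021 2.

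Ackr3 (chr1:90203980-90216751), the atypical receptor that takes up Cxcl12, had 25.2 and 27.9 CPM in MEF, 21.9 and 21.7 with carbidopa, 20.5 and 20.2 with LY-364747 and 15.7 and 18.3 with CHIR-99021. All treated libraries were below MEF by a modest amount. The log2 fold change was -0.64 ± 0.13 with CHIR-99021 (adjusted p = 0.00259), -0.38 ± 0.12 with LY-364747 (adjusted p = 0.0393) and -0.29 ± 0.12 with carbidopa, which did not pass (adjusted p = 0.0906). The LY-364747 call was lost without either MEF or either LY-364747 library (-0.31 to -0.46). The same call was lost with no filter, with the replicate block and with DESeq2. Ackr3 made up 60.5% and 66.3% of all receptor CPM in MEF and 80.8% to 89.8% in the treated libraries.

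Ackr1 (chr1:173331886-173333750), the Duffy antigen receptor that displays chemokines on vessels and red cells, had 80 and 71 reads in MEF, 2 and 5 with carbidopa, 2 and 6 with LY-364747 and 1 and 0 with CHIR-99021. It fell with each compound (adjusted p = 3.92e-05, 6.67e-05 and 2.23e-05), with MEF at 31.8 times the carbidopa level (exact 95% interval 15.1 to 80.5), 23.9 times that of LY-364747 (11.8 to 56.3) and 180 times that of CHIR-99021 (31.9 to 7176) in pooled reads. The fitted log2 fold change was -4.94 with carbidopa (-5.70 without Carbidopa 2), -4.55 with LY-364747 (-5.46 without LY-364747 2) and -7.20 with CHIR-99021 (-9.56 and -6.34 without CHIR-99021 1 and 2). Its exons share 25.7% of their bases with Cadm3 on the same strand, so that reads cannot be fully told apart, and Cadm3 went from 49.6 and 49.2 CPM in MEF to between 1.39 and 3.31 in the treated libraries.

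The other tested receptors, Ccr1, Ccr9 and Ackr4, passed in no comparison. Ccr1, the receptor of Ccl3, Ccl6 and Ccl9, had 18 and 7 reads in MEF, 13 and 18 with carbidopa, 9 and 4 with LY-364747 and 8 and 4 with CHIR-99021. Each treated group overlapped MEF in CPM, and the LY-364747 and CHIR-99021 libraries lay below both carbidopa ones. Ccr9, the Ccl25 receptor, had 6 to 11 reads in every library and Ackr4, which takes up Ccl19, Ccl21 and Ccl25, had 4 to 18. Their counts are uncertain where strand was not used, since 18.8% of the exon bases of Ccr9 are shared with AC165425.1 and 8.9% of those of Ackr4 with Acad11, both on the other strand.

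**Figure D5:**
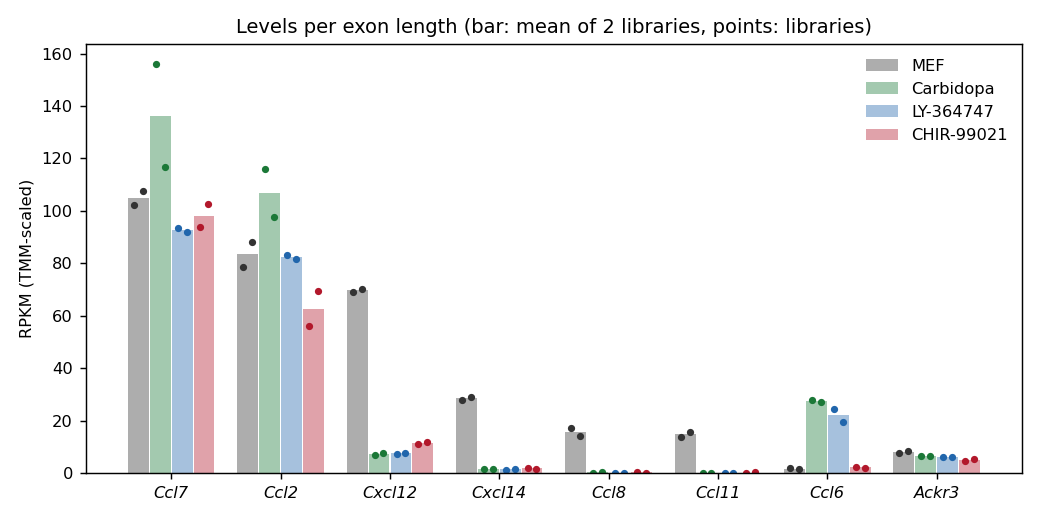
Level per kilobase of exon (RPKM) of 8 members in each group, on a linear axis; bars are the mean of the 2 libraries drawn as points. Ccl7 (105), Ccl2 (83.4) and Cxcl12 (69.6) lead in MEF as group means, and Ccl6 reaches 27.5 with carbidopa and 22.0 with LY-364747.

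Per length of exon, so that genes can be compared, the order in MEF was Ccl7 with a mean of 105 RPKM ± 3.86 (SD, n = 2), Ccl2 with 83.4 ± 6.79, Cxcl12 with 69.6 ± 0.771, Cxcl14 with 28.5 ± 0.756, Ccl8 with 15.7 ± 2.05 and Ccl11 with 14.7 ± 1.51. Ccl8 and Ccl11 do not differ beyond the spread between libraries, and the others do. That spread does not cover error from the exon length used, so that it does not settle the order between genes. With carbidopa the order became Ccl7 at 136 ± 27.7, Ccl2 at 107 ± 12.9 and Ccl6 at 27.5 ± 0.437, with Cxcl12 at 7.36 ± 0.483; there Ccl7 and Ccl2 do not differ beyond their spread. RPKM used all annotated exons of a gene, so that a gene with long alternative exons, such as Cxcl12, may be understated. The place of Cxcl12 below Ccl7 and Ccl2 in MEF is therefore uncertain.

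Of the 31 members that were not tested, 11 had no read in any library: Ccl1, Ccl17, Ccl21a, Ccl21b, Ccl24, Ccl26, Ccl27b, Cxcl9, Cxcl17, Ccr6 and Ccr8. A count of 0 allows up to 3 reads in a library. The receptors Ccr2, Ccr3 and Cxcr2, which read Ccl2, Ccl11 and Cxcl5, had at most 4 reads in any library. Ccl5 alone reached 10 reads, in Carbidopa 2, with 3 in Carbidopa 1, 1 and 0 in MEF, 3 and 2 with LY-364747 and 0 and 0 with CHIR-99021.

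Comparing compounds with each other, CHIR-99021 differed from carbidopa for 8 members. Of the 26 tested, 7 were lower and 1 higher with CHIR-99021, beside 8.08% and 6.62% of all tested genes (14.7% in either direction). The lower ones were Ccl6 (log2 fold change -3.66 ± 0.17, adjusted p = 1.34e-06), Ccl3 (-3.59 ± 0.35, adjusted p = 0.000137), Ccl20 (-3.45 ± 0.54, adjusted p = 0.00227), Ccl4 (-3.26 ± 0.66, adjusted p = 0.00889), Ccl9 (-2.88 ± 0.26, adjusted p = 9.16e-05), Ccl2 (-0.77 ± 0.13, adjusted p = 0.0038) and Ccl7 (-0.47 ± 0.13, adjusted p = 0.0401). Cxcl12 was the higher one, at 0.63 ± 0.10 (adjusted p = 0.00206). For each of the 8, no CHIR-99021 library overlapped the carbidopa ones. The Ccl2 call was lost without CHIR-99021 1 (-0.62) and the Ccl4 call without either CHIR-99021 library (-2.86 and -3.79). For Ccl7 the call was lost without any library other than Carbidopa 2, with -0.25 without Carbidopa 1. That call was also lost with the compared groups alone and with the replicate block. For Ccl3 the value ran from -3.003 without CHIR-99021 1 to -4.57 without CHIR-99021 2.

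Against LY-364747, CHIR-99021 was lower for 5 members and higher for 1, beside 7.69% and 6.45% of all tested genes (14.1% in either direction). Ccl6 stood at -3.34 ± 0.17 (adjusted p = 3.12e-06), Ccl3 at -3.18 ± 0.36 (adjusted p = 0.000348), Ccl20 at -3.17 ± 0.55 (adjusted p = 0.00429), Ccl4 at -2.82 ± 0.70 (adjusted p = 0.0235) and Ccl9 at -2.64 ± 0.26 (adjusted p = 0.00017). Cxcl12 was again higher, at 0.62 ± 0.10 (adjusted p = 0.0023). Ccl2, at -0.39 ± 0.13, did not pass (adjusted p = 0.0754). It did pass with no filter (-0.38), with the compared groups alone (-0.40) and with DESeq2 (-0.40). The Ccl4 call was lost without either library of either group (-2.43 to -3.36) and with DESeq2, and the Ccl3 value was -2.60 without CHIR-99021 1 and -4.16 without CHIR-99021 2. The 14 tested macrophage markers moved the same way, with 13 lower than with carbidopa and 12 lower than with LY-364747. Their part in these differences was not tested.

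LY-364747 and carbidopa differed for no member in edgeR and for none in DESeq2, and 0.0132% of all tested genes passed. At an unadjusted p under 0.05 there were 3 members, all lower with LY-364747: Ccl7 at -0.56 ± 0.13, Ccl2 at -0.37 ± 0.13 and Ccl6 at -0.33 ± 0.14 (adjusted p = 0.519 for each). With Carbidopa 2 left out, Ccl7 (-0.75) and Ccl2 (-0.49) passed. A failed test does not show that these compounds act alike.

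Other parts of the chemokine system that the naming rule leaves out were examined as a list of 12 genes, of which 9 were tested. With carbidopa 2 rose and 3 fell, with LY-364747 2 rose and 4 fell and with CHIR-99021 2 rose and 4 fell, beside the shares of all tested genes given above (18% and 19.7%, 13.7% and 17.2%, and 18.7% and 20.1%). The 4 falls with CHIR-99021 became 2 without MEF 2 or CHIR-99021 1. Cx3cr1, the receptor of Cx3cl1 and a microglia and monocyte marker, had 82 and 84 reads in MEF and at most 3 in any treated library. Cmklr1, the chemerin receptor, had 324 and 382 reads in MEF and 4 to 8 in treated libraries. Its ligand gene Rarres2 went the other way, from 3 and 5 reads in MEF to 236 and 177 with carbidopa, 139 and 189 with LY-364747 and 32 and 45 with CHIR-99021. Dpp4, the protease that trims and inactivates many chemokines, rose by 3.07 ± 0.15, 3.09 ± 0.15 and 1.04 ± 0.16 on the log2 scale (adjusted p = 1.7e-07, 1.73e-07 and 0.000648).

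Genes that carry chemokine receptor signals inside the cell fell more often than they rose. Of 21 tested, 12 fell and 1 rose with carbidopa, 14 fell and 1 rose with LY-364747 and 15 fell and 1 rose with CHIR-99021, with medians of -0.51, -0.83 and -0.80 beside 0.04, 0.03 and 0.04 over all tested genes. Falls over all tested genes came to 19.7%, 17.2% and 20.1%, and rises to 18%, 13.7% and 18.7%. The gene that rose was Rgs16, a brake on G protein signalling, at 0.71 ± 0.13, 0.48 ± 0.13 and 1.43 ± 0.13 (adjusted p = 0.00194, 0.0181 and 1.48e-05); with LY-364747 that call was lost without either MEF library and without LY-364747 2. Rgs2, another such brake, fell by 2.65 ± 0.21, 2.95 ± 0.21 and 2.90 ± 0.21. Dock2 and Rac2, which drive movement of blood cells, also fell, Rac2 by 3.01 ± 0.19 with CHIR-99021. The macrophage marker sum went from 1349 and 1401 CPM in MEF to between 104 and 418 in treated libraries, and its part in these falls was not tested.

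Among NF-kappaB genes and the cytokines that induce chemokines, calls went in both directions. Of 25 tested, 7 rose and 6 fell with carbidopa, 5 rose and 6 fell with LY-364747 and 5 rose and 6 fell with CHIR-99021, with medians of 0.02, -0.05 and 0.06. Over all tested genes 18% rose and 19.7% fell with carbidopa, 13.7% and 17.2% with LY-364747 and 18.7% and 20.1% with CHIR-99021, and nothing particular to the list is read from its counts. With 1 library left out, the rises numbered 2 to 9 with carbidopa (2 without MEF 1), 2 to 6 with LY-364747 (2 without MEF 2) and 1 to 6 with CHIR-99021 (1 without MEF 2 or CHIR-99021 1), and the falls 4 to 7, 3 to 6 and 4 to 9. Il1r1, the interleukin-1 receptor, fell by 1.98 ± 0.16, 1.88 ± 0.16 and 3.17 ± 0.18 (adjusted p = 6.09e-06, 9.12e-06 and 3.75e-07). Tlr4, the endotoxin receptor, rose by 1.38 ± 0.14, 1.68 ± 0.14 and 0.64 ± 0.14 (adjusted p = 2.58e-05, 6.6e-06 and 0.00413), as did Nfkbia, the inhibitor that NF-kappaB itself switches on, by 1.37 ± 0.20, 1.14 ± 0.20 and 0.84 ± 0.20 (adjusted p = 0.000376, 0.00141 and 0.00775).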

How the data were processed

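Per the labels, RNA was taken from 8 MEF samples (4 groups of 2). The authors deposited 1 table of read counts per gene: per the methods, reads were aligned with STAR (2.4.2a) to mm10 and counted with featureCounts, and the annotation release and strand setting are not given in the sources used here. The labels and the methods name different library kits. The depth was 15039566 to 20504338 counts, and 1 read is worth 0.0466 to 0.0743 CPM.

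Counts were tested here with edgeR 4.0.16 (R 4.3.3, limma 3.58.1) by its quasi-likelihood test with TMM scaling, filterByExpr (15154 of 50578 genes kept) and group as the only term over all 8 libraries, with Benjamini-Hochberg adjustment over all kept genes and a threshold of 0.05. SE is the absolute log2 fold change over the square root of F. The 2 libraries of a group differed most with carbidopa, where chi-square over degrees of freedom was 34.6. It was 4.31 in MEF, 9.21 with CHIR-99021 and 7.25 with LY-364747. A spread shared by all groups may thus understate that of carbidopa. CPM uses TMM-scaled library totals. Pooled-read ratios carry exact 95% intervals. The fit was tried on simulated data for CHIR-99021 against MEF only, with the same spread in every group. That trial does not check the carbidopa comparisons, where the spread was larger. DESeq2 1.42.0, RLE size factors, no filter, a filter of 10 counts in every library, a fit of only the groups compared, the replicate number as a block, and each library left out in turn were alternatives. Positions and exon lengths are from GENCODE M21, which held all 57 members, and promoters from RefSeq.

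Every tested member is named, with full values for those called in any comparison. Untested members are named at 10 or more counts in a library, and the remaining names of untested members were chosen after their values were seen. Of each other list, up to 3 genes with the smallest p against MEF were eligible. Rgs16, the overlapping genes and some marker genes fall outside this rule and were named after their values were seen. The values of 1 untested member are not reported here. Members and lists were chosen with earlier results of these data known, although the rule for members uses symbols alone.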

Additional observations from a re-analysis of the deposited data

How the results depend on the processing

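Directions of the changes reported for the 20 members with a call in any comparison held under every alternative run except for Ccl2 with LY-364747 against MEF, which ran from -0.10 to 0.063 on the log2 scale when 1 library was left out, and Ccl3 with carbidopa against MEF, from -0.15 to 0.037; neither passed any test. The 3 rises with carbidopa became 1 with the compared groups alone, with the replicate block and with DESeq2, and 1 to 4 when a library was left out; the cause was not tested. Requiring at least 10 counts in every library removes by construction members that fell to few reads. At most 15 members can stay, the number with 10 reads in CHIR-99021 1. That filter left 4 falls with carbidopa, 5 with LY-364747 and 7 with CHIR-99021 against MEF. It left 4 of CHIR-99021 against carbidopa and 2 against LY-364747. The share of all genes called under it is not given here, so that nothing particular to the members is read from these counts. LY-364747 against carbidopa gave 1 fall with no filter (Ccl7) and 0 to 2 with a library left out. In the other comparisons leaving out a library gave 9 to 12 falls with carbidopa, 8 to 15 with LY-364747 and 14 to 17 with CHIR-99021 against MEF, 4 to 7 of CHIR-99021 against carbidopa and 4 to 6 against LY-364747; the group left with 1 library is then assumed to vary like the others. Of the single changes reported, calls were lost for 1 with RLE size factors, 2 with no filter, 3 with the compared groups alone, 5 with the block and 9 with DESeq2, and gained for 0, 3, 3, 0 and 1. Low reads limit Cxcl1, Cxcl10, Cxcl15, Ccl4 and Ccl20.

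Deviations of libraries of the same number were weakly correlated (-0.16 to 0.13). Such values cannot tell whether libraries of the same number were prepared together. With the replicate block 10, 11 and 17 members fell with carbidopa, LY-364747 and CHIR-99021 against MEF.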
